A study of Homo sapiens with 2 samples.

Results

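The genes described here are 10 amino acid transporters of the plasma membrane, SLC7A11, SLC7A5, SLC3A2, SLC7A1, SLC38A1, SLC38A2, SLC1A5, SLC1A4, SLC1A3 and SLC43A2, out of 41582 gene symbols in the deposited table. They were listed by name as transporters of cystine, glutamine, leucine or glutamate. The list also holds SLC7A1, which carries cationic amino acids, and SLC1A4, which carries serine, alanine and cysteine. Cells of U87, an established line from human glioblastoma, labelled wild type and grown in RPMI medium with serum, were treated for 72 h with the curcumin analog CCA-1.1 or with its solvent DMSO. There was 1 mRNA sequencing library per condition, and the concentration of CCA-1.1 used for these libraries is not given in the sources used here. No difference between the 2 libraries has a replicate check, so no p-value is given and every comparison below describes these 2 libraries. The values are in TPM, a unit of transcript abundance, summed over all transcripts of a gene. TPM divides reads by transcript length and by the library total, so levels can be compared between genes, but the read depth is unknown and no counting error can be given. In a bulk library, fewer cells with a transcript and less of it per cell cannot be told apart.

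Cells take up amino acids through carrier proteins that differ in what they carry and in what drives them. SLC7A11 (xCT) and SLC7A5 (LAT1) are light chains that reach the cell surface by pairing with the heavy chain SLC3A2 (CD98hc, 4F2hc). The SLC7A11 pair imports cystine, the source of cysteine for glutathione, and releases glutamate, while the SLC7A5 pair imports leucine and other large neutral amino acids in exchange for glutamine. SLC1A5 (ASCT2), SLC38A1 (SNAT1) and SLC38A2 (SNAT2) carry glutamine, and SLC1A3 (EAAT1, GLAST) is an astrocyte glutamate transporter that clears glutamate from the extracellular space. Glioma cells are known for releasing glutamate through SLC7A11. Several of these genes are known targets of ATF4, the transcription factor of the amino acid response, and SLC7A11 is also a known target of NRF2, the factor of the antioxidant response.

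Marker genes were set beside the labelled cell type, though they cannot by themselves identify the line. The mesenchymal glioma markers VIM, CD44, CHI3L1 and FN1 summed to 20012 TPM with DMSO and 17063 TPM with CCA-1.1. The 6 glial or astrocyte markers looked at summed to 13.2 TPM with DMSO and 15.7 TPM with CCA-1.1. Of these, GFAP and AQP4 were at or below 0.57 TPM in both libraries and S100B was listed at 0. The others were low but present: ALDH1L1 at 3.42 TPM and 6.05 TPM, NES at 7.53 TPM and 7.62 TPM, and SOX2 at 1.87 TPM and 1.45 TPM. Of the markers of other cell types, the 4 of microglia or macrophages summed to 3.14 TPM and 3.23 TPM, the 3 of endothelium to 3.93 TPM and 3.23 TPM, the 4 of oligodendrocytes to 6.94 TPM and 9.08 TPM, and the 4 of neurons to 38.4 TPM and 34.2 TPM. SNAP25, a synaptic protein gene, was the highest of the neuronal markers, at 22.0 TPM with DMSO and 16.8 TPM with CCA-1.1. The part of these markers in the results below was not tested.

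The cystine transporter SLC7A11 was higher with CCA-1.1 and the glutamate transporter SLC1A3 was lower, and these were the 2 transporters with the widest differences. The other 8 did not reach the threshold set below. Among them, the heavy chain SLC3A2 differed by 0.22, the glutamine transporters SLC38A2, SLC38A1 and SLC1A5 by -0.21, -0.17 and -0.11, and the leucine transporter SLC7A5 by -0.21. The difference of a gene is log2(TPM + 1) with CCA-1.1 minus log2(TPM + 1) with DMSO, which understates the change of genes at low TPM. Where genes are counted, a difference above 0.32 or below -0.32 was taken as the threshold. By sign alone, 3 of the 10 genes were higher and 7 were lower with CCA-1.1, with a median difference of -0.09. The sign count includes SLC7A1 at -0.02 and SLC43A2 at 0.03, and no such count was made over all genes. Over the 8 transporters that averaged at least 10 TPM, the median difference was -0.14. For comparison, 7906 protein-coding genes averaged at least 10 TPM over both libraries, and their median difference was 0.0039 and the 5th and 95th percentiles were -0.29 and 0.31. The mean of both libraries was at least 10 TPM for 8 of the 10 transporters, of which 1 lay above the 95th percentile, 1 lay below the 5th and 6 lay between them. Past 0.32, 1 transporter (SLC7A11) was higher, against 4.33% of the 7906 genes, and 1 (SLC1A3) was lower, against 3.62%. No transporter passed 2-fold in either direction, against 0.0632% of these genes higher and 0.152% lower.

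**Figure D1:**
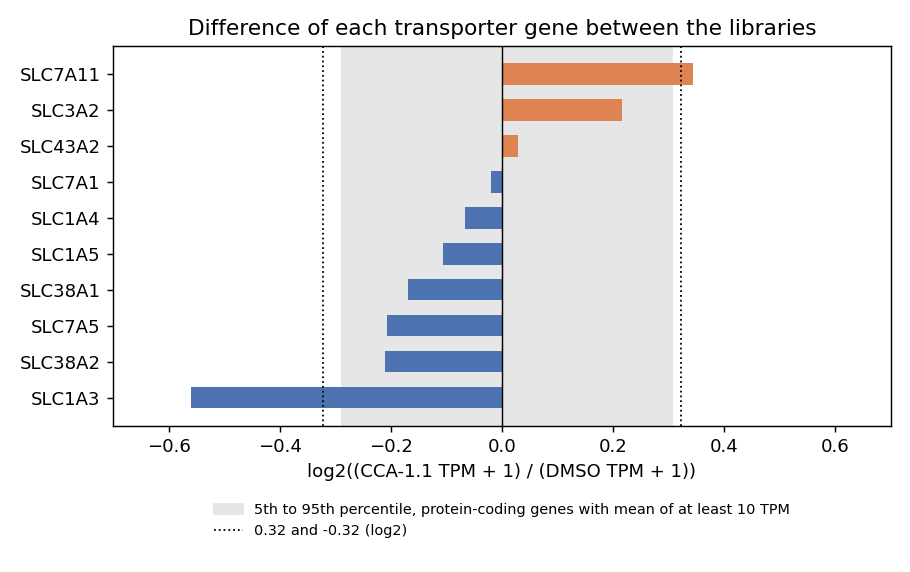
Difference of each of the 10 transporter genes between the CCA-1.1 and the DMSO library on the log2(TPM + 1) scale, 1 library each. The grey band runs from -0.29 to 0.31, the 5th to 95th percentile of 7906 protein-coding genes, and SLC7A11 at 0.34 and SLC1A3 at -0.56 reach past it and past the dotted lines at 0.32 and -0.32.

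The levels of the 10 genes were spread widely. SLC38A2 was the highest, with 777.5 TPM with DMSO and 671.5 TPM with CCA-1.1, and it ranked 147th and 174th among 19938 protein-coding genes. SLC43A2 was the lowest, with 0.44 TPM and 0.47 TPM. SLC38A2 alone held 46.9% of the summed TPM of the 10 genes with DMSO and 44.4% with CCA-1.1. That sum was 1657 TPM with DMSO and 1514 TPM with CCA-1.1, which is 8.64% lower, and without SLC38A2 it was 879.7 TPM and 842.4 TPM. In DMSO the order was SLC38A2, SLC1A5, SLC38A1, SLC3A2, SLC1A3, SLC7A5, SLC7A1, SLC7A11, SLC1A4 and SLC43A2. In CCA-1.1, SLC3A2 stood above SLC38A1, and SLC1A3 moved from rank 5 to rank 7, below SLC7A5 and SLC7A1. With 1 library per condition there is no spread against which neighbours in this order could be told apart.

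**Figure D2:**
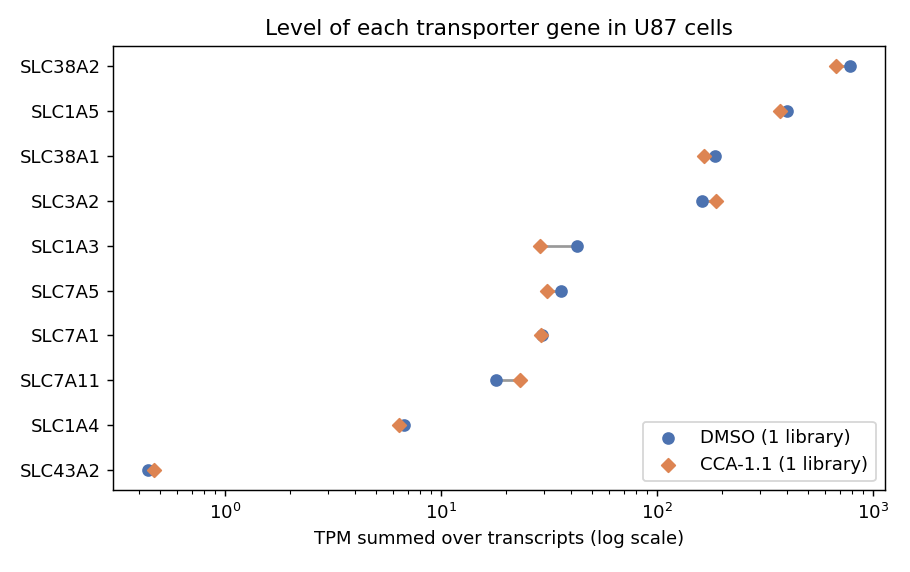
Level of each transporter gene in TPM summed over its transcripts, on a log axis, with 1 point for the DMSO library and 1 for the CCA-1.1 library. The genes run from SLC43A2, below 1 TPM, to SLC38A2, at 777.5 TPM and 671.5 TPM, and the widest gaps between the 2 points are those of SLC1A3 and SLC7A11.

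On GRCh38.p14, SLC7A11 (gene identifier 23657) occupies chromosome 4 from 138164097 to 138242349. It was at 17.98 TPM with DMSO and at 23.09 TPM in the CCA-1.1 library. This is a ratio of 1.28 and a log2(TPM + 1) difference of 0.34. Of the 7906 protein-coding genes, 284 had a higher difference. Transcript NM_014331.4 made up 98.7% of the gene with DMSO and 98.9% with CCA-1.1, so the gene and its curated transcript gave nearly the same difference (0.35 for the transcript). The antisense gene SLC7A11-AS1, which overlaps it, was at 0.24 TPM and 0.15 TPM, far below SLC7A11. Whether the reads were counted by strand is not given in the sources used here.

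SLC3A2, on chromosome 11 from 62856109 to 62888860, encodes the heavy chain shared by SLC7A11, SLC7A5 and other light chains. It was at 161.1 TPM with DMSO and at 187.4 TPM with CCA-1.1, a difference of 0.22, with a higher difference in 872 of the 7906 genes. The transcript NM_001013251.3 was at 144.1 TPM and 166.7 TPM and held 89.5% and 89.0% of the gene. The noncoding transcript NR_037193.2 was at 7.58 TPM and 11.95 TPM, a difference of 0.59, so that over the protein-coding transcripts alone the gene differed by 0.19. The other 3 coding transcripts were each slightly lower in the CCA-1.1 library.

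The light chains that pair with SLC3A2 are SLC7A5, SLC7A6, SLC7A7, SLC7A8, SLC7A10 and SLC7A11. Together they were at 83.8 TPM with DMSO and 86.1 TPM with CCA-1.1, a difference of 0.04. SLC7A11 held 21.4% of this sum with DMSO and 26.8% with CCA-1.1, and SLC7A5 held 42.6% and 35.7%. The SLC7A5 to SLC7A11 ratio was 1.98 with DMSO and 1.33 with CCA-1.1. SLC7A6 and SLC7A7, which carry cationic and neutral amino acids, were at 8.21 TPM and 5.45 TPM with DMSO and at 10.25 TPM and 6.64 TPM with CCA-1.1. The heavy chain was above the sum of its light chains in both libraries, 1.92 times with DMSO and 2.18 times with CCA-1.1.

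SLC7A5, on chromosome 16 from 87830023 to 87869507, was at 35.68 TPM with DMSO and 30.79 TPM with CCA-1.1, a difference of -0.21. Its value rests on 1 listed transcript, NM_003486.7. The pseudogene SLC7A5P2, whose sequence resembles SLC7A5 and with which reads may have been shared, was at 3.17 TPM and 4.36 TPM. SLC43A2 (LAT4), a leucine transporter that needs no heavy chain, lies on chromosome 17 from 1569254 to 1630088. At 0.44 TPM and 0.47 TPM it was barely above 0. The highest of its 8 listed transcripts, NM_152346.3, was at 0.12 TPM and 0.19 TPM. Among 4 leucine transporters of system L (SLC7A5, SLC7A8, SLC43A1 and SLC43A2), SLC7A5 held 64.2% of the summed TPM with DMSO and 62.0% with CCA-1.1, while SLC43A2 held 0.792% and 0.947%. The sum of these 4 genes was 55.6 TPM and 49.6 TPM.

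SLC7A1 (CAT1), the main carrier of arginine and lysine in many cells, lies on chromosome 13 from 29509414 to 29595688. It was at 29.27 TPM with DMSO and 28.85 TPM with CCA-1.1, a difference of -0.02. The other cationic transporters of the family, SLC7A2 and SLC7A3, were listed at 0 in both libraries. The curated transcript NM_003045.5 was at 26.05 TPM and 23.52 TPM, and the predicted transcript XM_047430551.1 was at 0.41 TPM and 2.87 TPM, a difference of 1.46. Another predicted transcript, XM_047430550.1, was at 2.53 TPM and 2.44 TPM. The lower value of NM_003045.5 (by 2.53 TPM) and the higher value of XM_047430551.1 (by 2.46 TPM) nearly cancel in the sum.

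SLC38A2, on chromosome 12 from 46358188 to 46372773, encodes the sodium-coupled neutral amino acid transporter that is known to be induced when amino acids are short. Its difference between the libraries was -0.21, that is 106.0 TPM less with CCA-1.1, and 751 of the 7906 genes had a lower difference. All 3 of its transcripts were lower with CCA-1.1, and NM_018976.5 carried most of the gene with 752.9 TPM and 655.0 TPM. Its neighbour SLC38A1, on the same chromosome from 46183063 to 46269043, was at 185.2 TPM with DMSO and 164.6 TPM with CCA-1.1, a difference of -0.17. The SLC38A2 to SLC38A1 ratio was 4.20 and 4.08. SLC38A3, SLC38A4 and SLC38A5, the other members of the family set beside them, were each at or below 0.26 TPM.

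SLC38A1 had 52 of the 88 transcripts that the table lists for the 10 genes, of which 32 were above 0 in at least 1 library. The curated transcripts NM_001077484.2 (99.4 TPM with DMSO, 81.7 TPM with CCA-1.1) and NM_030674.4 (51.2 TPM, 42.1 TPM) were both lower, by -0.28 each on the log2(TPM + 1) scale. They held 81.3% of the gene with DMSO and 75.2% with CCA-1.1. The 6 curated transcripts summed to 161.7 TPM and 132.5 TPM, a difference of -0.29. The 46 predicted transcripts, of which 26 were above 0 in at least 1 library, summed to 23.5 TPM and 32.1 TPM, a difference of 0.43. The difference of the gene as a whole therefore lies between those of its curated and its predicted transcripts. The predicted transcript XM_047429591.1 was at 3.15 TPM with DMSO and was listed at 0 with CCA-1.1, and XM_047429598.1 was at 5.05 TPM and 8.75 TPM.

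SLC1A5, on chromosome 19 from 46774883 to 46788594, exchanges glutamine for other neutral amino acids. It was the second highest of the 10 genes, with 400.6 TPM with DMSO and 372.3 TPM with CCA-1.1, a difference of -0.11. Transcript NM_005628.3 was at 354.3 TPM and 324.2 TPM and the alternative NM_001145144.2 was at 38.8 TPM and 41.1 TPM. SLC1A4 (ASCT1), an exchanger of serine, alanine and cysteine on chromosome 2 from 64988479 to 65023865, was at 6.74 TPM and 6.39 TPM, a difference of -0.07. Its transcript NM_003038.5 was at 5.92 TPM and 4.09 TPM and NM_001348406.2 was at 0.82 TPM and 2.30 TPM. The share of NM_001348406.2 was thus 12.2% with DMSO and 36.0% with CCA-1.1 at a gene level that differed by 0.35 TPM.

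SLC1A3, on chromosome 5 from 36596588 to 36688334, had the widest difference of the 10 genes. It was at 42.61 TPM with DMSO and at 28.60 TPM in the CCA-1.1 library, which is 32.9% lower. The difference was -0.56 on the log2(TPM + 1) scale, and 51 of the 7906 genes had a lower one. Transcript NM_004172.5 was at 39.4 TPM and 25.1 TPM, a difference of -0.63, and the other transcripts of the gene differed by at most 0.20 TPM. NM_001289940.2, the next in level, was at 1.83 TPM and 1.88 TPM. The antisense gene SLC1A3-AS1 was at 0.15 TPM and 0.25 TPM. SLC1A1 (EAAT3), the other main glutamate transporter in these cells, was at 37.0 TPM with DMSO and 31.7 TPM with CCA-1.1, a difference of -0.22. SLC1A2 (EAAT2), the major glutamate transporter of mature astrocytes, was at 4.90 TPM and 5.17 TPM. SLC1A3 held 50.3% of the summed TPM of the 5 glutamate transporters of the SLC1 family with DMSO and 43.5% with CCA-1.1, where SLC1A1 held 48.2%. The sum of these 5 genes was 84.7 TPM with DMSO and 65.8 TPM with CCA-1.1.

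**Figure D3:**
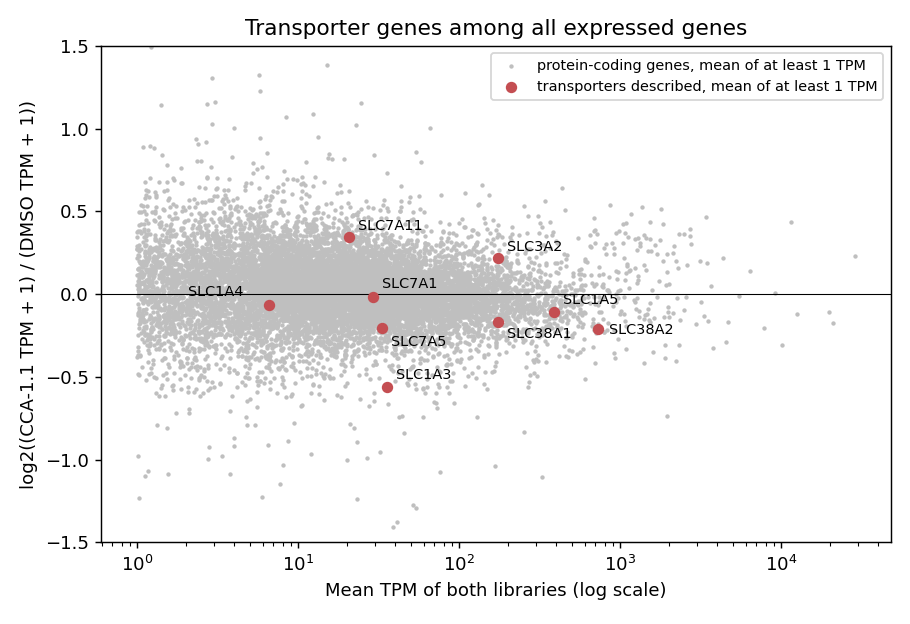
Difference on the log2(TPM + 1) scale against the mean TPM of both libraries (log axis) for protein-coding genes that average 1 TPM or more (grey) and for the 9 transporters that reach it (red). The 9 grey genes beyond 1.5 in either direction lie outside the axis. SLC1A3 sits at the lower edge of the grey cloud at its level, and SLC38A2 and SLC1A5 lie at the right, at 724.5 TPM and 386.4 TPM.

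By single transcripts, 2 of the 88 were more than 2-fold higher with CCA-1.1 and 1 was more than 2-fold lower, against 1.17% and 1.07% of all 177816 listed transcripts. Of the 33 that averaged 1 TPM or more, 1 was higher and 1 was lower, against 3.66% and 3.38% of the 34503 transcripts at that level. All 3 are predicted transcripts, of SLC7A1 or SLC38A1. The third, XM_047429589.1 of SLC38A1, had a value of 0 with DMSO and of 1.76 TPM with CCA-1.1. Kallisto divides reads that match several transcripts among them by estimation, so the values of transcripts of 1 gene depend on each other, most of all in SLC38A1.

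**Figure D4:**
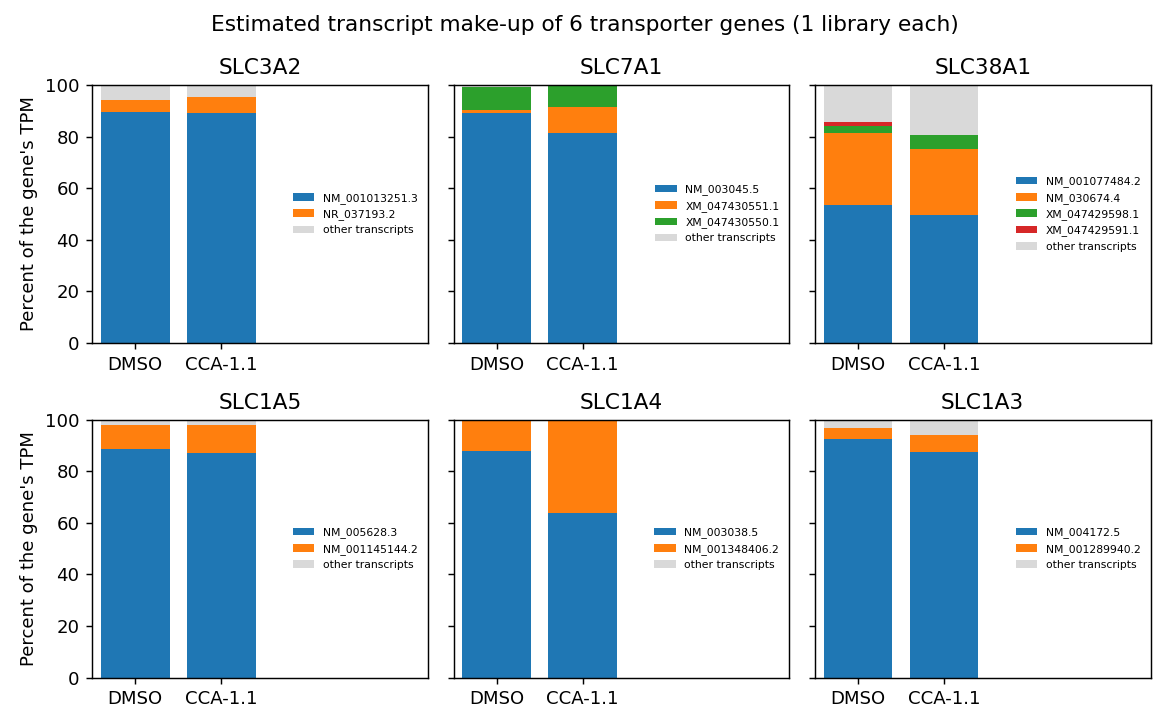
Share of each gene's TPM held by its transcripts in the DMSO and CCA-1.1 libraries, 1 library each, for 6 transporter genes. Coloured segments are transcripts with at least 5% of the gene in either library or past 2-fold with a mean of at least 1 TPM, and grey is the sum of the others. The wide orange segment of SLC1A4 is NM_001348406.2, with 12.2% and 36.0%.

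The starts of these genes were searched for the core letters of a pair of elements through which amino acid shortage and oxidative stress are known to act on transporter genes. The RefSeq windows of GRCh38.p14 run from 250 bases before to 50 bases after each annotated start, and 19 such windows were found for 9 of the 10 genes, all but SLC7A11. The core TGATGNAA of the amino acid response element, which ATF4 binds, was searched on either strand. It was found in 6 of the 19 windows, belonging to 6 of the 9 genes. Over the whole set it was found in 3.62% of 35116 windows and for 4.46% of 27305 genes. SLC38A2, SLC7A5 and SLC43A2 had windows without a match, and sites outside the windows were not searched. The core TGACNNNGC of the antioxidant response element, which NRF2 binds, was searched in the same way. It was found in 5 of the 19 windows, belonging to 5 genes, and in 13.3% of all windows and for 16.1% of all genes. For both cores the shares by gene are not alike, since the transporters had more windows per gene than the whole set. The matches of the pair did not overlap each other in any transporter. The 6 matches of the first core are shown because they include SLC1A3, the transporter with the widest difference, as 30 bases in the direction of the gene, with the match in capitals. Where the match is on the opposite strand (SLC1A4 and SLC3A2), the capitals are its reverse complement.
SLC3A2 (chr11:62881719-62881748, plus strand): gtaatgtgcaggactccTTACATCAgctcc
SLC7A1 (chr13:29595663-29595692, minus strand): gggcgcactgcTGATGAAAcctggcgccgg
SLC38A1 (chr12:46266502-46266531, minus strand): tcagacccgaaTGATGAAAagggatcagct
SLC1A5 (chr19:46784893-46784922, minus strand): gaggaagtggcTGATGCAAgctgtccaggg
SLC1A4 (chr2:64989381-64989410, plus strand): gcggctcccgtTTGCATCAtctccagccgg
SLC1A3 (chr5:36596357-36596386, plus strand): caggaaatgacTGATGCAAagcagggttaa

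Most of these genes have more than 1 annotated start, and the first core was found at 1 start of each gene, which is 1 of 3 for SLC1A3, SLC1A5 and SLC3A2, 1 of 2 for SLC1A4 and SLC38A1, and the single start of SLC7A1. In SLC1A3 the match began 220 bases before the start at 36596588, the first base of the gene, and the starts at 36606606 and 36606954 had none. In SLC1A5 it began 97 bases before an internal start at 46784814, and the starts at 46788594, the outer end of the gene, and 46787293 had none. The starts were not assigned to the transcripts described above. The matches in SLC1A4 and SLC38A1 began 7 and 4 bases before the start they belong to, and those in SLC7A1 and SLC3A2 began at transcribed bases 8 and 38. The matched starts of SLC1A4 (64989399), SLC38A1 (46266516) and SLC3A2 (62881699) are internal too, while that of SLC7A1 is the outer end of the gene. Of the 6 genes, SLC1A3 was past -0.32 and the other 5 were between the thresholds, from -0.17 for SLC38A1 to 0.22 for SLC3A2. The second core was found in SLC3A2, SLC7A5, SLC7A1, SLC1A5 and SLC1A3, of which SLC1A3 alone was past a threshold, and it was again at 1 start of each gene. The matches in SLC3A2 and SLC7A5, the heavy chain and one of its light chains, are shown because they lie closest to a start, with the match in capitals. The one in SLC3A2 began 37 bases before the same internal start at 62881699 and also holds the letters TGACTCA of the AP-1 element. The one in SLC7A5 began 2 bases before the single start of that gene.
SLC3A2 (chr11:62881651-62881680, plus strand): acgagggtgggTGACTCAGCgtcctccttc
SLC7A5 (chr16:87869491-87869520, minus strand): ggcggggttccTGACGCAGCtgcgggcggc

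Other genes of amino acid transport and use were taken from lists, and are counted where both libraries averaged 1 TPM or more. In these counts, higher and lower mean a difference above 0.32 and below -0.32. At that level, 6.84% of 12041 protein-coding genes were higher with CCA-1.1 and 4.53% were lower, with a median difference of 0.02. Some genes stand on more than 1 list, GPT2 and ASNS among them. Of 33 further plasma membrane amino acid transporters, 11 reached 1 TPM and none of these passed 0.32 or -0.32, with a median difference of 0.02 (-0.06 over curated transcripts alone, -0.08 at a minimum of 10 TPM) and a range from -0.22 for SLC1A1 to 0.29 for SLC7A6. SLC6A9 (GLYT1), a glycine transporter, was at 16.9 TPM with DMSO and 15.2 TPM with CCA-1.1. SLC6A15, a transporter of branched-chain amino acids and proline, was at 65.5 TPM and 70.8 TPM. Most of this list was thus below 1 TPM in U87 cells.

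The list of the amino acid response, which ATF4 drives when amino acids are short, also holds ATF4 itself and the kinase EIF2AK4. It had 28 members at or above 1 TPM, with a median difference of 0.10. Of these, 7 were higher, ATF4 among them, 2 were lower and 19 lay between. TRIB3, a pseudokinase that restrains ATF4, was at 27.4 TPM with DMSO and 41.1 TPM with CCA-1.1, a difference of 0.57. DDIT3 (CHOP), a stress transcription factor, was at 273.2 TPM and 403.7 TPM, a difference of 0.56. CEBPB, a transcription factor of inflammation as well as of this response, was at 521.0 TPM and 401.2 TPM, and STC2, a secreted glycoprotein, was at 78.1 TPM and 60.0 TPM. ATF4 itself was at 312.1 TPM and 422.9 TPM, a difference of 0.44.

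In the list of glutathione synthesis and cystine handling, 15 genes reached 1 TPM, 1 was higher and none was lower, with a median of 0.0085. The higher gene was GGCT, an enzyme of glutathione breakdown, at 25.6 TPM with DMSO and 34.0 TPM with CCA-1.1. Glutamate-cysteine ligase is the first enzyme of glutathione synthesis, and its subunits are known NRF2 targets. The catalytic subunit GCLC was at 23.5 TPM and 27.5 TPM, and the modifier subunit GCLM was at 34.1 TPM and 30.2 TPM. KEAP1, the repressor of NRF2, was at 52.2 TPM and 46.7 TPM.

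Of 13 genes of glutamine and glutamate metabolism at or above 1 TPM, 1 was higher, with a median of 0.0041. This was GPT2, a mitochondrial alanine transaminase, at 10.4 TPM with DMSO and 14.3 TPM with CCA-1.1. Asparagine synthetase (ASNS), which uses glutamine, was at 23.4 TPM and 28.2 TPM, glutamine synthetase (GLUL) was at 44.4 TPM and 39.4 TPM, and glutamate dehydrogenase (GLUD1) was at 170.7 TPM and 159.9 TPM. None of the 12 genes of leucine and branched-chain amino acid catabolism passed 0.32 or -0.32. Their median was 0.10, and 0.03 over curated transcripts alone. BCAT1, the cytosolic branched-chain transaminase, was at 26.7 TPM and 33.1 TPM, and DBT, a subunit of the branched-chain ketoacid dehydrogenase, was at 27.2 TPM and 31.0 TPM. BCKDHA and PPM1K, a subunit and the phosphatase of that enzyme, differed by -0.04 each.

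Of 26 genes through which mTORC1 senses amino acids, 2 were higher and 1 was lower, with a median of 0.07. RRAGA, a small GTPase that recruits mTORC1 to the lysosome, was at 107.6 TPM with DMSO and 157.2 TPM with CCA-1.1, a difference of 0.54. The Ragulator subunits LAMTOR2 and LAMTOR1 stood at 82.7 TPM and 79.6 TPM with DMSO and at 100.6 TPM and 64.3 TPM with CCA-1.1. SAR1A was at 79.0 TPM and 68.5 TPM. The other higher gene was SESN1 and the lower one was CASTOR2, a pair of genes below 10 TPM that were named after their values were seen.

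Of 11 genes listed as lysosomal transporters and at or above 1 TPM, 2 were higher and none was lower, with a median of 0.13. SLC15A4, a lysosomal carrier of histidine and peptides, was at 47.7 TPM with DMSO and 61.7 TPM with CCA-1.1, while MFSD12, which brings cysteine into lysosomes, was at 240.1 TPM and 217.4 TPM. SLC38A6, whose place in the cell is less certain, was at 20.1 TPM and 23.0 TPM, and SLC66A1, an exporter of cationic amino acids, was at 32.2 TPM and 28.4 TPM. SLC29A3, the other higher gene, carries nucleosides and was below 10 TPM. Of 10 mitochondrial carriers, 2 were higher and none was lower, with a median of 0.0033. SLC25A38, a glycine carrier, was at 20.8 TPM and 27.5 TPM, and SLC25A13, an aspartate and glutamate carrier, was at 16.7 TPM and 18.8 TPM. SLC25A44, a carrier of branched-chain amino acids, was at 37.2 TPM and 30.6 TPM, and SLC25A22, a glutamate carrier, was at 22.6 TPM and 20.5 TPM. SFXN2, the other higher one, was below 10 TPM and was named after its value was seen, as was SLC29A3.

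**Figure D5:**
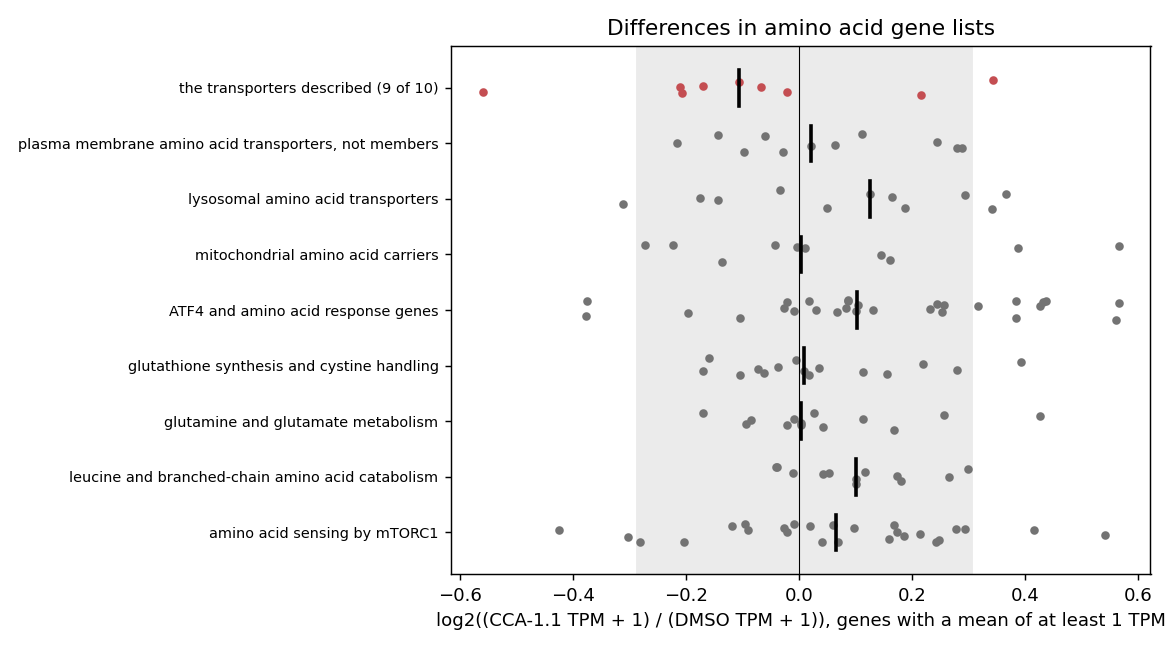
Differences on the log2(TPM + 1) scale of the genes of each list that average 1 TPM or more, 1 point per gene, with the list's median as a black bar and the range from -0.29 to 0.31 of the percentiles given above in grey. The transporters described are in red, 9 of the 10 reaching 1 TPM, and the amino acid response list has 7 points above 0.32 and 2 below -0.32.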

How the data were processed

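U87 cells treated for 72 h with DMSO or CCA-1.1 gave 1 library each. The authors enriched mRNA, checked the reads with FastQC 0.11.9 and MultiQC 1.1, and quantified human transcripts (GRCh38.p14) with Kallisto. The values the authors deposited are TPM with 2 decimals, and the unit was inferred from column sums of 999999 and 1e+06. Of 177816 transcripts, 169411 matched a RefSeq gene table of GRCh38.p14 by versioned identifier and 169966 without the version, among them all 88 of the transporters. TPM was summed per gene, 1 TPM was added and the log2 ratio taken. A minimum mean of 10 TPM set the background of 7906 genes, and 1 TPM that of the lists. A difference above 0.32 or below -0.32 was counted. TPM gives no read depth, and no interval is printed. The paper's test needs counts and was not applied.

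The transporters and the gene lists were chosen with earlier results of these data known. The text names all 10 transporters, their transcripts (those of SLC43A2 by the highest alone) with at least 5% of the gene or past 2-fold at a mean of at least 1 TPM, and from each list the 2 largest rises and 2 largest falls at a mean of at least 10 TPM. ATF4, the SLC7A11-AS1, SLC1A3-AS1 and SLC7A5P2 genes, the genes set beside a transporter as its family or partners, and XM_047429589.1 were added after values were seen. Promoter windows are from RefSeq. A planned comparison of protein sequences was not made. The calculation was tested on simulated data. Python 3.11.15, numpy 2.4.6, pandas 2.3.3 and matplotlib 3.10.9 were used. The alternatives were a pseudocount of 0.1 TPM or none, median-ratio scaling, curated or protein-coding transcripts only, other minimum levels and a lower threshold.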

Additional observations from a re-analysis of the deposited data

How the results depend on the processing

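No paired analysis was possible because each condition has a single library, and for the same reason no library could be left out. With no replicates, a difference was called moved when it changed by at least 0.20, the SD of the differences of 7906 protein-coding genes. Under a pseudocount of 0.1 TPM or none, median-ratio scaling (factor 1.003), and curated or protein-coding transcripts only, all 50 recomputed transporter differences kept their direction and moved by less than that. Part of this outcome was fixed in advance. SLC7A5, SLC3A2, SLC1A5, SLC1A4 and SLC1A3 have curated transcripts only, and every transporter but SLC3A2 has protein-coding transcripts only, so those values could not move. A factor of 1.003 could move little. The differences of SLC7A1, SLC38A1, SLC1A5, SLC1A4 and SLC43A2 are themselves smaller in size than 0.20. The 40 recomputed medians of the 8 other gene lists, which include a minimum mean of 10 TPM, also moved by less than 0.20, but 6 of them, near 0 throughout, changed sign. The median of the further plasma membrane transporters was -0.06 over curated transcripts and -0.08 at a minimum of 10 TPM, that of the glutathione list was -0.0047 under both, and that of the mitochondrial carriers was -0.05 over curated transcripts and -0.0002 under median-ratio scaling. The number of transporters past 0.32 and -0.32 was 1 higher and 1 lower under each alternative it was recomputed with at that threshold. With a threshold of 0.20, chosen after seeing the data, it was 2 higher and 3 lower, since SLC3A2, SLC7A5 and SLC38A2 lie between the thresholds. Transcripts past 2-fold numbered 5 higher and 3 lower with a pseudocount of 0.1 TPM, 1 higher with a minimum mean of 1 TPM, and 0 in both directions among curated transcripts. Over curated transcripts only, the share of NM_014331.4 in SLC7A11 and of NM_003045.5 in SLC7A1 was 100% in both libraries by construction, that of NM_018976.5 in SLC38A2 was 98.3% with DMSO and 98.8% with CCA-1.1, and in SLC38A1 that of NM_001077484.2 was 61.5% and 61.6% and that of NM_030674.4 was 31.7% and 31.8%. In SLC43A2, NM_152346.3 was at 66.7% and 65.5%, NM_001284498.2 at 33.3% with DMSO and NM_001321365.2 at 34.5% with CCA-1.1, all on values near 0. The unknown read depth limits every value near 0 TPM.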
